A study of Bos taurus with 90 samples.

Results

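The 150 genes described here are those whose level in mural granulosa cells (MGCs) of healthy bovine follicles was higher in medium than in small follicles and, by the mean CPM, higher again in large ones. They were chosen from the 27270 genes of the count table by their values in 10 MGC libraries, 3 from small, 3 from medium and 4 from large follicles. A level is given as CPM, the count of a gene divided by the library total and multiplied by 1000000. A gene was eligible if its mean in large follicles was at least 10 CPM, if every medium value lay above every small value, and if the large mean lay above the highest medium value. Of 8437 genes with a large mean of at least 10 CPM, 2182 met the condition on medium follicles and 423 met all conditions. The 150 with the largest difference between large and small follicles in mean log2(CPM + 1) were kept. The last 3 genes kept had differences of 1.143, 1.142 and 1.139, and the next 3 had 1.134, 1.134 and 1.128. Differences within these 10 libraries are therefore a description of how the genes were chosen and carry no test.

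MGCs, cumulus cells (CCs) and the oocyte were taken from the same single antral follicles of slaughtered Bos taurus cows, without treatment, and each cell type of each follicle gave 1 library. Of the follicles retained by the study, 9 were small (3.1 to 3.8 mm wide), 8 medium (6.2 to 7.0 mm) and 10 large (9.6 to 11.6 mm), named here S1 to S9, M1 to M8 and L1 to L10. The study called 10 of them healthy from the expression of their own MGCs, namely S4, S5, S6, M5, M6, M8, L5, L8, L9 and L10, and these are the 10 follicles of the choice above. The other 17 follicles, 6 small, 5 medium and 6 large, had passed the same inspection of the follicle wall, and their MGCs were not used in choosing the genes. Several follicles may come from 1 cow, so p-values measure the spread between follicles and not between animals. MGC libraries held 26739954 to 39266980 counts. CC pools and oocytes were amplified before sequencing, and their libraries held 1666212 to 40180192 and 8442938 to 53173320 counts. The lowest of these was the CC pool of S7, with counts for 1066 genes, and it was left out of the CC comparisons.

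MGCs line the wall of the antral follicle. They respond to follicle-stimulating hormone, divide as the antrum grows, and convert androgens from the theca into oestradiol. In cattle a single follicle of a wave usually becomes dominant, and its granulosa cells acquire receptors for luteinizing hormone, while the others of the wave undergo atresia. CCs surround the oocyte and are joined to it by gap junctions. Since the table names genes only by Ensembl identifier, and 0 of the 27270 identifiers matched the reference table used here, roles of single genes are not given and the cell types were not checked against marker genes. The 2 genes with the largest difference are called by their identifiers, and others by their place in the order of the choice, from 1 for the largest to 150.

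In healthy MGCs the 150 genes spanned a wide range of levels. Their mean in small follicles had a median of 16.1 CPM, which was 30.002 CPM in medium and 52.1 CPM in large follicles. In large follicles 46 genes had a mean under 30 CPM, 58 lay between 30 and 100 CPM, 38 between 100 and 1000 CPM, and 8 at 1000 CPM or more. The median difference between large and small follicles was 1.58 on the log2(CPM + 1) scale, with quartiles of 1.29 and 1.93. It was over 2 for 35 genes and over 3 for 6 genes, and reached 5.46. For 96 genes the step from small to medium follicles was the larger one, and for 54 genes that from medium to large. The first step had a median of 0.89 and the second a median of 0.64, and the second step was as low as -0.18 on this scale, since the choice compared the large mean in CPM.

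The healthy large follicles differed among themselves. Every large value lay above every small value for 145 of the 150 genes, but every large value lay above every medium value for only 64, since the choice asked this of the large mean alone. L10, the widest follicle at 11.6 mm, was the highest of the 4 large libraries for 53 genes and also the lowest for 53 genes. L8 was the highest for 42 and the lowest for 44. The genes thus did not share 1 order of the large follicles. With L10 left out, 120 of the 150 genes were chosen again, and leaving out any other of the 10 libraries gave 118 to 143.

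A few abundant genes carried most of the counts. The 150 genes together took 0.963% to 1.196% of all counts in the small healthy libraries, 2.51% to 3.10% in the medium and 3.32% to 6.98% in the large ones. The stages did not overlap in this share. Between small and medium follicles this was fixed by the choice, as it was for the mean of the large ones. The 8 genes with a mean of at least 1000 CPM in large follicles made up 52.7% to 72.8% of that share in the large libraries, and the highest of the 150 in L10 reached 18411 CPM.

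ENSBTAG00000014890, the gene with the largest difference, was measured at 16.2, 7.61 and 9.20 CPM in S4, S5 and S6. It was at 155, 595 and 193 CPM in M5, M6 and M8, and at 600, 86.1, 215 and 5768 CPM in L5, L8, L9 and L10. All medium and large values lay above the small ones, but the medium and large values overlapped, and L8 was below every medium library. The large mean of 1667 ± 2742 CPM (SD, n = 4) rested mainly on L10. ENSBTAG00000000736, the next in the order, was at 45.8, 33.2 and 30.6 CPM in S4, S5 and S6, and at 744, 1512 and 510 CPM in M5, M6 and M8. Its values in L5, L8, L9 and L10 were 684, 395, 876 and 4850 CPM. Here, too, L10 stood far above the rest, and the other large libraries were within or below the range of the medium ones.

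**Figure D1:**
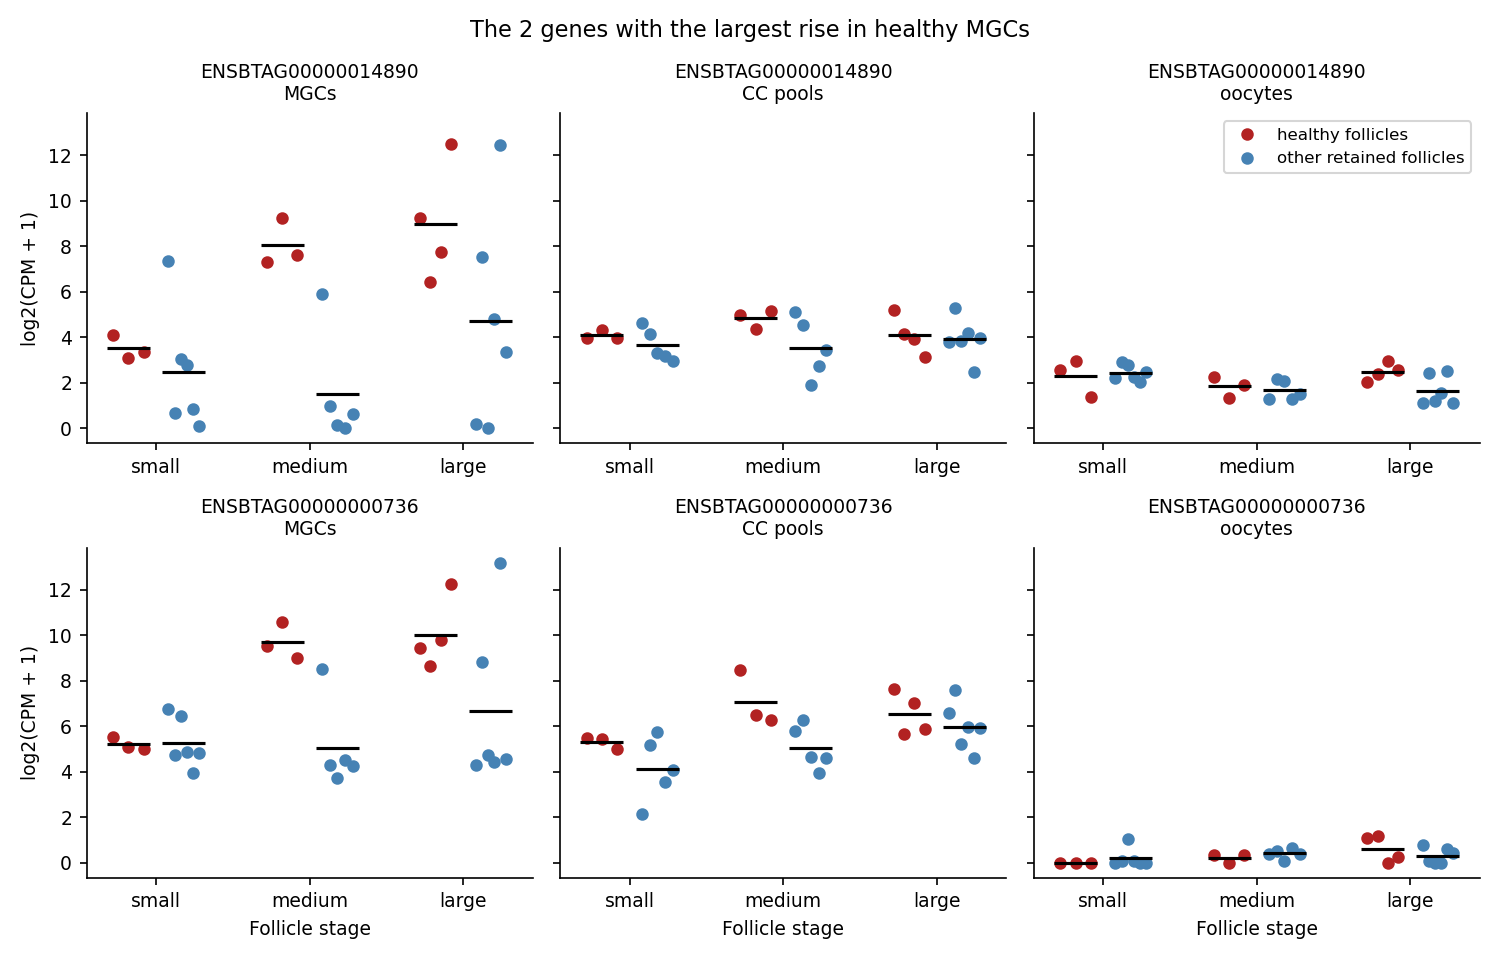
Level of the 2 genes with the largest difference in every retained library except the CC pool of S7. The y axis is log2(CPM + 1), the x axis is follicle stage, each point is 1 library, red points are the 10 healthy follicles that chose the genes and blue points the others, and the black lines are group means. In MGCs the red medium and large points lie above the red small ones, while of the blue points only S1, M1, L2, L4 and L6 exceed 10 CPM for ENSBTAG00000014890.

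Whether the genes also differed between stages in follicles that had no part in the choice was examined in the 17 other retained MGC libraries. The genes stood higher in large than in small follicles: the fitted log2 fold change was above 0 for 122 of the 150 genes, beside 48.5% of all genes tested, and its median was 0.70 (quartiles 0.24 and 1.29) beside -0.01 for all genes. It was over 1 for 53 of the 150 and for 7.56% of all genes. Few of these differences exceeded the spread between follicles. With a fold change above 2 and an adjusted p under 0.05 in edgeR's quasi-likelihood test, 4 of the 150 genes were called higher and 0 lower, beside 0.121% of all 14876 genes called higher and 0.424% lower. At an unadjusted p under 0.05, 39 were higher and 0 lower, beside 3.05% of all genes higher and 4.9% lower. DESeq2 called 21 of the 150 higher and 0 lower, beside 1.11% and 2.47% of all genes with an adjusted p. In each contrast of these stages it gave no adjusted p for 4 of the 150, the 2 with the largest difference among them. In a fit over all 27 retained libraries, which holds those of the choice and is a description only, 58 of the 150 were past both limits, beside 1.52% of all genes. As in any bulk library, fewer cells of a type and less RNA per cell cannot be told apart.

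The 2 steps did not look alike in these follicles. From small to medium follicles the median of the 150 genes was 0.07, with 82 above 0 beside 47.8% of all genes. None was called by edgeR in either direction (beside 0.00672% of all genes called higher and 0.0269% lower). At an unadjusted p under 0.05 there were 9 higher, beside 1.86% of all genes, and 5 lower, beside 5.1%. DESeq2 called 4 higher, beside 0.262%, and 2 lower, beside 1.56%. From medium to large follicles the median was 0.58, with 138 of the 150 above 0 beside 50.5% of all genes. Again 0 were called by edgeR and 0 by DESeq2 (0.0% of all genes in both), with 20 higher and 0 lower at an unadjusted p under 0.05, beside 1.6% of all genes higher and 0.592% lower. These contrasts share libraries with the one between large and small follicles. The difference between the steps was not tested.

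**Figure D2:**
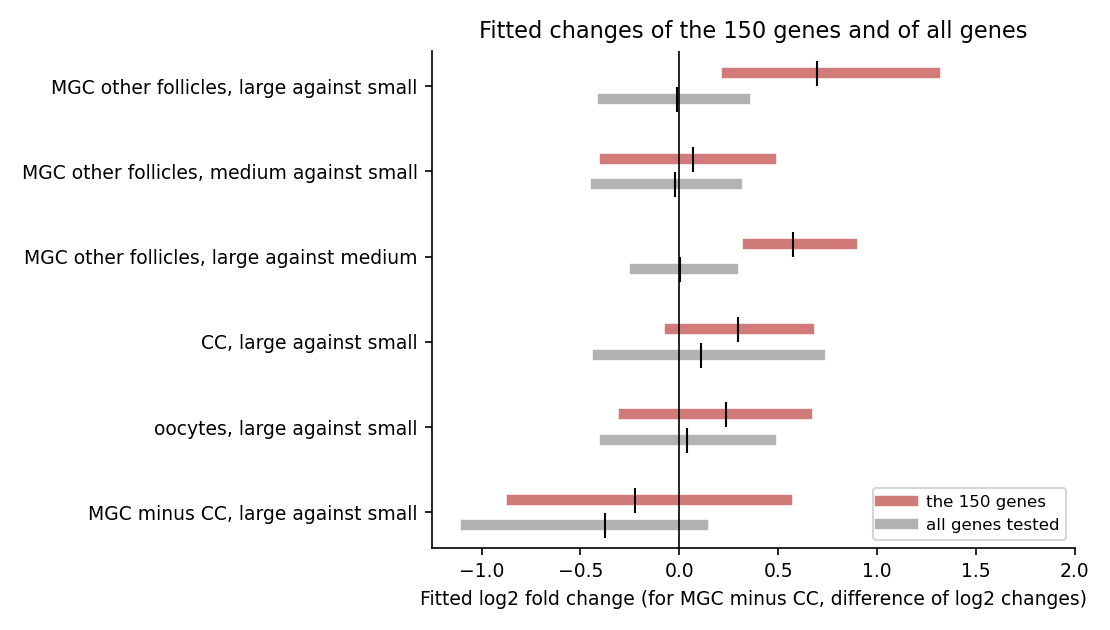
Fitted log2 fold changes of the 150 genes (red) and of all genes tested (grey) in each comparison, where bars run from the lower to the upper quartile and black ticks are medians. The x axis is log2 fold change, or for the lowest row the difference between the changes in MGCs and CCs. The red median lies at 0.70 for large against small and at 0.58 for large against medium follicles in the other MGCs, and nearest to 0, at 0.07, for medium against small.

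Follicles differed widely within a stage. The median of the 150 genes in log2(CPM + 1) was 5.52, 4.10, 5.20, 4.26, 5.45 and 4.69 in S1, S2, S3, S7, S8 and S9. In M1, M2, M3, M4 and M7 it was 5.39, 4.65, 4.71, 4.67 and 4.65, and in L1, L2, L3, L4, L6 and L7 it was 4.92, 5.25, 5.04, 5.17, 6.17 and 5.76. The small follicles S1, S3 and S8 thus lay among the large ones, and the stages overlapped. The highest values were those of L6 and L7, both 11.2 mm wide, and the lowest large value was that of L1, the narrowest at 9.6 mm. In the other stages the highest values were those of S1 at 3.1 mm and M1 at 6.2 mm, and no other follicle of their stage was narrower. However, M2, also 6.2 mm wide, was among the lowest medium values. The lowest small value was that of S2 at 3.2 mm, and S8 at 3.8 mm was close to S1. A relation to diameter within a stage was not tested. The median SD of the 150 genes between other follicles, in log2(CPM + 1), was 0.77, 0.54 and 0.79 for the small, medium and large stage, beside 0.50, 0.35 and 0.45 for all genes with a mean of at least 10 CPM there. In healthy follicles, whose values were used in the choice, it was 0.18, 0.25 and 0.48, beside 0.18, 0.24 and 0.38 for all genes.

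**Figure D3:**
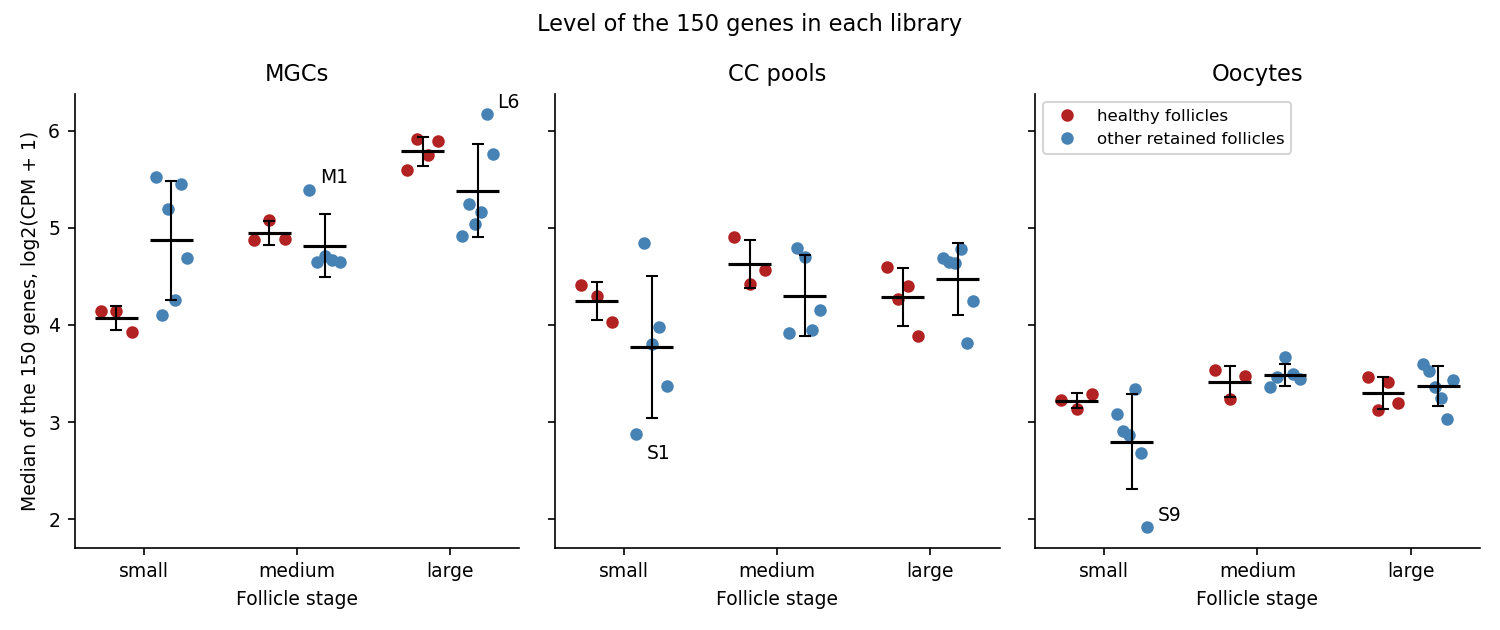
Median of the 150 genes in each library, in log2(CPM + 1), by follicle stage and cell type. Each point is 1 library, red for healthy and blue for other retained follicles, with group means and SD bars in black and the libraries that stand apart named. In MGCs the red stages are separate, which the choice fixed between small and medium follicles and asked of the large mean alone. The blue stages overlap, with L6 at 6.17 and M1 at 5.39.

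L6 and M1 weighed heavily on these values. Of the 17 libraries, L6 was the highest for 66 of the 150 genes, beside 9.84% of all genes, and it was the lowest for 0 of the 150 beside 21.8% of all genes. The 150 genes took 10.7% of all counts in L6 and 1.53% to 3.21% in the other 5 large libraries. Without L6 the median for large against small follicles was 0.31 and that for large against medium 0.26, with 102 and 122 of the 150 genes above 0. Only 1 gene was then called higher between large and small follicles, beside 0.249% of all genes. M1 held 2.87% of its counts in the 150 genes, and the other 4 medium libraries 1.22% to 1.53%. Without M1 the median for medium against small follicles was -0.34, the opposite direction, and that for large against medium follicles was 0.87. With both left out, a choice made after seeing the data, the medians were 0.31 for large against small, -0.36 for medium against small and 0.59 for large against medium, and 7 of the 150 genes were called higher between large and small follicles, beside 0.464% of all genes.

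**Figure D4:**
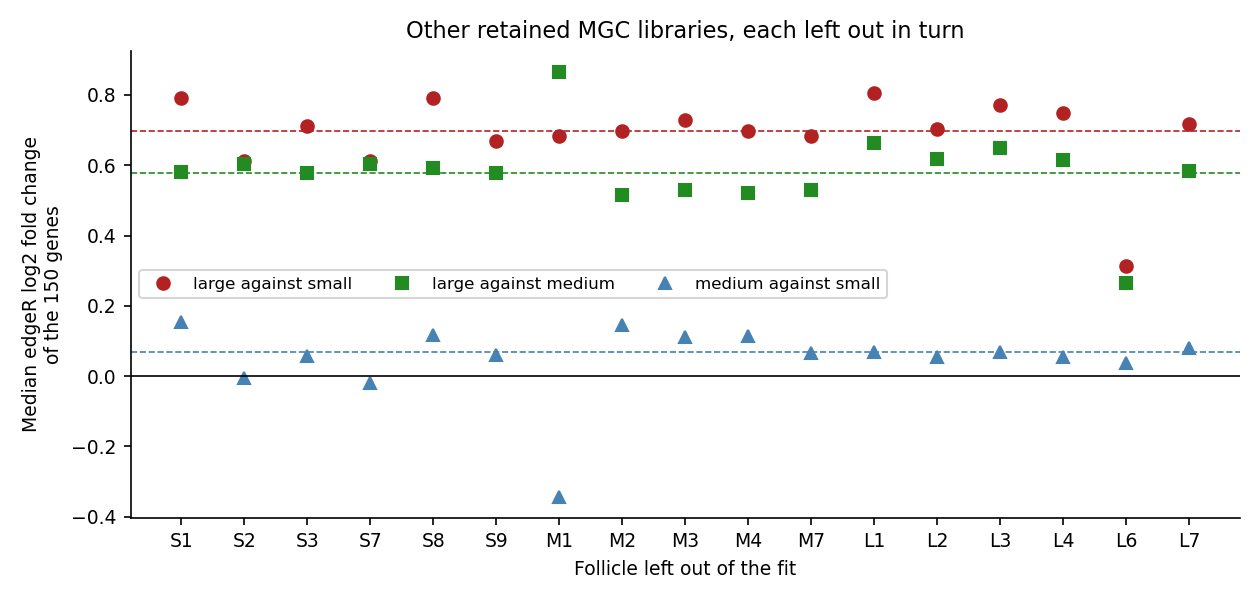
Median fitted log2 fold change of the 150 genes in the other MGC libraries when 1 follicle is left out of the fit. The x axis names the follicle left out, the symbols are the contrasts, and dashed lines are the values with all 17 libraries. Most points stay near their line, but leaving out L6 lowers both contrasts with large follicles to 0.31 and 0.26, and leaving out M1 takes medium against small to -0.34.

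Genes with a larger difference in healthy follicles also had larger fitted values in the others. For genes 1 to 50 in the order, whose median in the choice was 2.16, the median log2 fold change of large against small in other follicles was 1.35, with 49 of 50 above 0. For genes 51 to 100 these values were 1.58 in the choice and 0.72 in the others, with 40 above 0, and for genes 101 to 150 they were 1.21 and 0.35, with 33 above 0. The 96 genes with the larger first step in healthy follicles had a median of 0.82, with 84 above 0, and the 54 with the larger second step a median of 0.50, with 38 above 0. Both classes were near 0 between small and medium follicles (0.13 and 0.03) and above it between medium and large (0.64 and 0.51), so the split by step in healthy MGCs did not separate the steps in the other follicles.

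**Figure D5:**
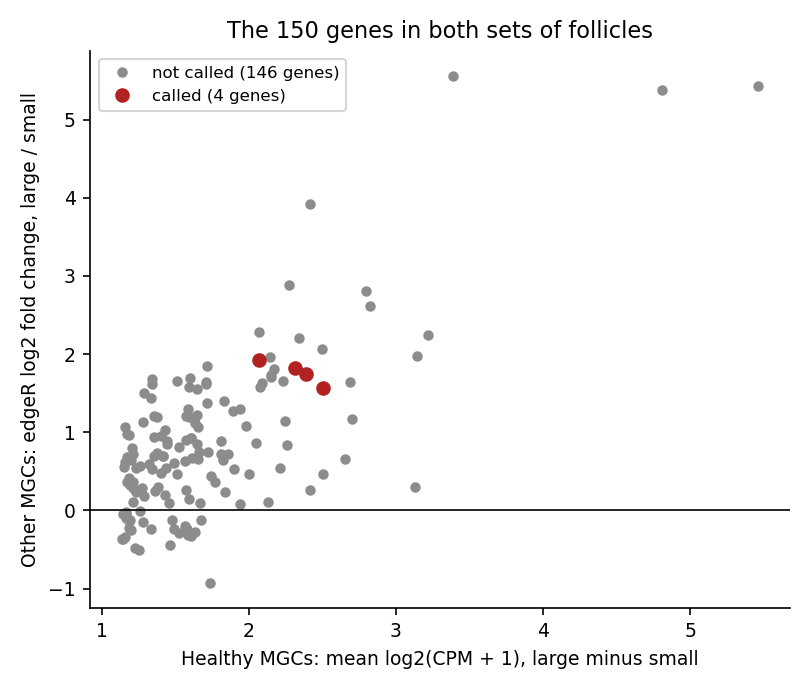
Each of the 150 genes by its difference in healthy MGCs (x axis, mean log2(CPM + 1) of large minus small, the measure that chose it) and its edgeR log2 fold change in the other MGCs (y axis). Red points are the 4 genes called in the other follicles. Of the 150 points 122 lie above 0, and the 3 topmost points, over 5 on the y axis, are not called.

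The 4 called genes had log2 fold changes between 1.57 and 1.92. The gene at place 12 was at 5.56 to 21.1 CPM in the 6 small, 31.2 to 51.6 CPM in the 5 medium and 25.96 to 62.8 CPM in the 6 large follicles. Its large and small values did not overlap, and it was higher by 1.57 on the log2 scale (SE 0.29, edgeR adjusted p = 0.0281). The gene at place 19 was at 124 to 422 CPM in small and at 424 to 1958 CPM in large follicles (log2 fold change 1.83, SE 0.41, edgeR adjusted p = 0.048). At place 17, levels ranged from 18.8 to 52.5 CPM in small and from 37.7 to 154 CPM in large follicles, with overlap (1.74, SE 0.37, edgeR adjusted p = 0.0441). At place 32, they ranged from 12.4 to 35.3 CPM in small and from 22.9 to 142 CPM in large follicles, also with overlap (1.92, SE 0.40, edgeR adjusted p = 0.0383). Over all 150 genes, 4 had every large value above every small value in these follicles, beside 0.39% of all genes. The calls changed with single follicles: with 1 follicle left out in turn, 0 to 6 of the 150 genes were called, and 0 without S1, S2, S7 or L7. In these fits 0.00672% to 0.262% of all genes were called higher.

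The most abundant of the 150 genes followed the single follicles. Of the 8 with at least 1000 CPM in healthy large follicles, 7 were highest in L6 among the 17 libraries. That at place 16 was at 91.6 to 30602 CPM in the other large follicles with a median of 860 CPM, and at 152 to 1028 CPM in the small ones (log2 fold change 3.92, SE 1.33, edgeR adjusted p = 0.168). The gene at place 23, the highest of the 150 in healthy large follicles at a mean of 9903 CPM, had medians of 2275, 5703 and 6355 CPM in the small, medium and large other follicles (1.66, SE 0.51, edgeR adjusted p = 0.131).

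The 2 named genes separated follicles rather than stages here. ENSBTAG00000000736 was at 14.4 to 108 CPM in the 6 other small follicles with a median of 27.5 CPM. It was at 365 CPM in M1 and at 12.1 to 21.7 CPM in the other 4 medium follicles. In the large follicles it was at 9376 CPM in L6 and 459 CPM in L2, but at 18.6, 25.5, 20.4 and 22.7 CPM in L1, L3, L4 and L7, within the range of the small follicles. Among all 27 retained MGC libraries, the 7 healthy medium and large ones with M1, L2 and L6 were at 365 CPM or more, and the rest at 108 CPM or less. The healthy libraries had been used to choose the gene, so their part of this split is a description only. Outside the choice only M1, L2 and L6 stood at this level. Between large and small other follicles ENSBTAG00000000736 differed by 5.38 on the log2 scale (SE 1.68, edgeR adjusted p = 0.132), and by 1.30 without L6. ENSBTAG00000014890 was at 5539 CPM in L6, 184 CPM in L2, 163 CPM in S1 and 58.4 CPM in M1, and under 27 CPM in the other 13 libraries, where L3 and M4 had no count. Large and small follicles differed by 5.44 on the log2 scale (SE 2.52, edgeR adjusted p = 0.314), and by 0.82 without L6. Neither gene was called by edgeR, and DESeq2 gave no p-value for either in these libraries.

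Follicles whose identifiers share their first 3 digits may share a collection, although the meaning of the digits is not stated. All 3 healthy small follicles share 1 such prefix that no other retained follicle has, so prefix and stage cannot be told apart in the choice itself. Among the other follicles, L6 could be compared with S1, S3 and S8 of the same prefix, and the median difference of the 150 genes was 0.95 in log2(CPM + 1), with 111 above 0, beside -0.34 for all genes. L2 could be compared with S2, with a median of 1.24 and 132 genes above 0, beside 0.15 for all genes. Of the medium follicles, M3 against S2 gave a median of 0.54 with 98 genes above 0, and M4 against S9 gave -0.13 with 65 above 0, beside 0.25 and -0.01 for all genes. For large against medium, the medians were 0.49 for L2 against M3, 0.30 for L3 against M2 and 0.04 for L1 against M7, with 103, 104 and 80 genes above 0, beside -0.12, 0.04 and 0.08 for all genes. The pairs of single follicles thus did not all go the same way. With the prefix as a covariate, the median log2 fold change was 1.02 for large against small, 0.52 for medium against small and 0.47 for large against medium follicles, and 5, 0 and 0 of the 150 genes were called higher, beside 0.229%, 0.0% and 0.0% of all genes. The first step thus moved from 0.07 to 0.52 with this covariate. Among the other follicles, M1 and S7 share a prefix with none, and L4 and L7 only with each other. These libraries therefore gave no information on the stages in that fit. Without M1 and without the covariate, the first step had a median of -0.34.

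In CCs, over 26 pools from healthy and other follicles, the median log2 fold change of large against small follicles was 0.30, with 107 of 150 above 0, beside 0.11 and 55.6% for all genes. By edgeR, 5 of the 150 were called higher and 0 lower, beside 1.25% of all genes called higher and 2.09% lower. The genes at places 13, 19, 40, 46 and 112 were higher by 2.45, 2.02, 1.95, 2.60 and 1.65 on the log2 scale (edgeR adjusted p between 0.0363 and 0.0382), and their large and small values overlapped. The gene at place 19 was also among the 4 called in MGCs. At an unadjusted p under 0.05, 20 were higher and 0 lower, beside 9.31% and 6.42% of all genes, and DESeq2 called 16 higher, beside 5.12%. In the pools of the other follicles, every large value lay above every small value for 2 of the 150 genes, beside 1.34% of all genes. The calls ended in the 4 other sets of pools, as did nearly all calls over all genes: 0 of the 150 were called in the 10 healthy follicles alone, in the other 16 alone, with the pool of S7 kept, or without the pool of S1, beside 0.0801%, 0.0%, 0.0132% and 0.0% of all genes called higher. The median of the 150 genes was 0.32, 0.33, 0.48 and 0.27 in these fits, beside 0.08, 0.18, 0.30 and 0.05 for all genes. Among the 26 pools, that of S1 had the lowest median level of the 150 genes, 2.88 in log2(CPM + 1), with 20 of them at a count of 0. With the prefix as a covariate 0 were called, beside 0.0397% of all genes, and the median turned to -0.09, beside 0.04. Within a prefix, the median difference was 0.14 for L6 against S1, S3 and S8, and -0.16 for L2 against S2.

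In healthy follicles alone, where MGCs had been used to choose the genes, the CC levels did not repeat the order of the stages. The median of the 150 genes lay at 4.03 to 4.41 in CC pools of small follicles, 4.42 to 4.90 in those of medium and 3.88 to 4.59 in those of large ones, and the large pools overlapped both other stages. The stage means were in the order small, medium, large for 19 of the 150 genes, beside 9.45% of all genes. ENSBTAG00000000736 was at 31.1 to 43.9 CPM in small, 77.0 to 350 CPM in medium and 49.5 to 195 CPM in large healthy pools, and its medium and large values lay above the small ones. Over the 26 pools large and small follicles differed by 1.54 on the log2 scale (SE 0.50, edgeR adjusted p = 0.0737, DESeq2 adjusted p = 0.0241). ENSBTAG00000014890 was at 2.78 to 38.0 CPM in CCs of all stages, and large minus small was -0.04 on the log2 scale (SE 0.44, edgeR adjusted p = 0.977).

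Oocytes held the 150 genes at lower levels. In log2(CPM + 1), the median of the genes lay between 1.92 and 3.34 in oocytes of small follicles, 3.24 and 3.67 in those of medium and 3.03 and 3.60 in those of large follicles. The lowest was the oocyte of S9. Over 27 oocytes the median log2 fold change of large against small was 0.24 for the 149 genes tested, with 94 above 0, beside 0.04 and 52.3% for all genes. By edgeR 2 were called higher and 1 lower, beside 0.924% of all genes called higher and 0.582% called lower. At an unadjusted p under 0.05, 8 were higher and 2 lower, beside 3.92% and 2.3%. In the other follicles every large value lay above every small value for 1 gene, beside 0.667% of all genes. The called genes were under 20 CPM in every oocyte: the gene at place 136 was at 0 to 0.54 CPM in small and 0 to 11.8 CPM in large follicles, that at place 24 was without a count in all 9 small oocytes and at most 1.27 CPM in large ones, and that at place 93 had a median of 0.04 CPM and a highest value of 19.8 CPM in small follicles and was at most 0.33 CPM in large ones. None was called in the 10 healthy oocytes, in the other 17, or with the prefix as a covariate, where 0.0% of all genes were called higher in each fit, and DESeq2 called 1 higher, beside 1.82% of all genes, with no adjusted p for 74 of the 150. ENSBTAG00000000736 did not exceed 1.24 CPM in any retained oocyte, and ENSBTAG00000014890 was at 1.15 to 6.85 CPM.

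The change of the 150 genes from small to large follicles was set against that in CCs of the same follicle, over the 16 other follicles with both libraries. The difference of the log2 changes, MGC minus CC, had a median of -0.22, with 65 of the 150 above 0, beside -0.37 and 31.0% for all genes. By limma 0 of the 150 were called in either direction, beside 0.0596% of all genes higher and 0.536% lower. At an unadjusted p under 0.05, 5 were higher, beside 3.34% of all genes, and 9 lower, beside 16.4%. The value rested on single follicles. Without S2, 2 were called higher and 18 lower, beside 2.84% and 12.7% of all genes, so these counts were near the share over all genes, and the median was -0.68, beside -0.62 for all genes. Without S1 the median was 0.19 and without L1 0.01, so that its direction changed. Over all 26 follicles, which include those of the choice, the median was 0.54, beside -0.13 for all genes. In that fit 3 of the 150 were called higher and 0 lower, beside 0.165% and 0.847% of all genes. A difference between MGCs and CCs in how these genes change was therefore not shown in follicles outside the choice.

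Levels in the 3 cell types were compared over the other follicles alone, since the healthy MGC libraries had been used to choose the genes. The mean was highest in MGCs for 92 of the 150 genes, beside 45.7% of the 9225 genes with an MGC mean of at least 10 CPM in these follicles. It was higher in MGCs than in CCs for 112 of 150, beside 62.8%, and higher in MGCs than in oocytes for 114, beside 61.1%. The MGC mean was more than 4 times that of CCs for 30 genes, beside 17.9%, while 2 genes were more than 4 times higher in CCs, beside 3.51%. The median over the 150 genes was 40.1 CPM in MGCs, 22.0 CPM in CCs and 9.09 CPM in oocytes. An oocyte mean under 1 CPM was found for 24 genes, beside 9.96% of the comparison genes. Of the 150, 16 had an MGC mean under 10 CPM in these follicles, a level that all comparison genes reached. For 33 genes the oocyte mean was the highest of the 3 cell types, beside 32.6% of the comparison genes. MGC libraries were not amplified like those of CCs and oocytes, so cell type and library method cannot be told apart in these levels, and they were not tested.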

How the data were processed

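RNA-seq was available for MGCs (bulk libraries), CC pools and single oocytes (SMART-seq2 without molecular identifiers) of 30 bovine follicles, 90 libraries in all. The deposited values were counts per gene without normalization, made by the authors with featureCounts on ARS-UCD1.2. The paper's methods name STAR as the aligner and the submitters' processing notes name HISAT2 2.2.1, which was not settled here. The 3 follicles removed by the study entered 1 alternative only.

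CPM was the count divided by the column total and multiplied by 1000000. The genes and all comparisons were chosen with earlier results of these data known. The study chose its healthy follicles on MGC expression, so the 10 libraries are not an independent sample of follicles. A gene was tested if 15 or more retained libraries of a cell type exceeded 1 CPM (15134 genes, all 150 among them), and each fit dropped genes that had only zeros in it. Stage contrasts used edgeR 4.0.16 in R 4.3.3 (TMM, glmQLFit, glmQLFTest) in 1 fit over the 3 stages, and the difference between MGCs and CCs used limma 3.58.1 with trend on log2(CPM + 1). Benjamini-Hochberg adjustment ran over all genes tested. A gene was called at a fold change above 2 and an adjusted p under 0.05, as in the study. Alternatives were DESeq2 1.42.0, its size factors, other filters and thresholds, the prefix as a covariate, other sets of follicles, and leaving out each follicle. The fits were tested on simulated counts. Plots and summaries used Python 3.11.15, pandas 2.3.3 and matplotlib 3.10.9.

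No column pair was identical. The planned gene lists, marker lists and promoter motifs need symbols or sequences and were not run, since 0 identifiers matched the table of 37063 RefSeq genes. The rule for genes named in the text took, in that case, the 2 with the largest difference in the choice by identifier. Genes given by their place are those called in a comparison, the most abundant ones and those at the edge of the choice. L6, M1, S1 and S9 were picked out after seeing the data.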

Additional observations from a re-analysis of the deposited data

Results flagged for a closer look

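Of 48 groups of 4 to 10 libraries examined for a library far from the others (the median of the 150 genes, their share of counts and the level of the 2 named genes), 12 held one, where chance flags about 1 in 20. In other large MGCs, L6 stood apart with 10.7% of counts in the 150 genes, 9376 CPM of ENSBTAG00000000736 and 5539 CPM of ENSBTAG00000014890. In other medium MGCs, M1 stood apart with a median of 5.39 in log2(CPM + 1), 2.87% of counts, 365 CPM of ENSBTAG00000000736 and 58.4 CPM of ENSBTAG00000014890. In healthy large MGCs, L10 stood apart with 4850 CPM of ENSBTAG00000000736 and 5768 CPM of ENSBTAG00000014890. ENSBTAG00000014890 was also far from the others in the MGCs of S1, at 163 CPM, and in the CC pool of L2, at 38.0 CPM. ENSBTAG00000000736 was so in the oocyte of S3, at 1.07 CPM. These flags are not independent, since several come from the same libraries and genes. Why these follicles stood apart was not tested.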

How the results depend on the processing

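The choice itself kept 134 to 145 of the 150 genes under other pseudocounts and scalings, 118 with a minimum of 1 CPM, 79 with a minimum of 50 CPM, and 118 to 143 with 1 library left out. In the other MGCs, genes called between large and small follicles numbered 4, and 39 by unadjusted p, 21 by DESeq2, 2 without a filter, 2 with the removed follicles added, 1 with only the stages compared, 58 over all 27 libraries (which hold those of the choice), 7 without L6 and M1, and 0 to 6 with 1 follicle left out. Of all genes, 0.0597% were called higher without a filter, 0.094% with the removed follicles added and 0.0135% with only the stages compared. With 1 follicle left out that share was 0.00672% to 0.262%. Between medium and small, genes called among the 150 numbered 0, and 14 by unadjusted p, 6 by DESeq2, 2 over all 27 libraries and 0 to 1 with 1 follicle left out. Over all 27 libraries 0.0268% of all genes were called higher and 0.396% lower for this step. Between large and medium they numbered 0, 20 by unadjusted p, and 0 with any 1 follicle left out. The median log2 fold change with 1 follicle left out ranged from 0.31 to 0.81 for large against small, -0.34 to 0.15 for medium against small (-0.36 without L6 and M1) and 0.26 to 0.87 for large against medium. In CCs 5 were called, and 20 by unadjusted p, 16 by DESeq2, and 0 with the prefix as a covariate (median -0.095), in healthy or other follicles alone, with the S7 pool, or without the S1 pool. In oocytes 3 were called, and 10 by unadjusted p, 7 without a fold limit, 1 by DESeq2, and 0 with the prefix or in healthy or other follicles alone. Without a fold limit, 4 were higher and 3 lower, beside 2.52% and 3.13% of all genes, so these counts were near the share over all genes. For MGC minus CC 0 were called, 14 by unadjusted p (added after seeing the data), 3 over 26 follicles (median 0.54), and 0 to 20 with 1 follicle left out (median -0.68 to 0.19), where the 20 came without S2 and lay near the share over all genes, of which 2.84% were called higher and 12.7% lower. Over the 26 follicles, which hold those of the choice, 0.165% of all genes were called higher and 0.847% lower. ENSBTAG00000014890 in CCs, at -0.04, was at 0.42 in healthy follicles, 0.17 with the S7 pool and 0.43 without the S1 pool. The causes of these changes were not tested, except that fewer libraries, other libraries or another threshold entered by construction. The stages hold different follicles, so the stage contrasts had no pairs. MGC minus CC was paired by follicle. Counts of the SMART-seq2 libraries are not of single molecules, so depth alone does not set their precision.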
